A study of Mus musculus with 6 samples.

Results

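The splicing factor and hnRNP genes described here are those that form and regulate the spliceosome, in 6 families taken by the start of the gene symbol: Srsf, Sf3a, Sf3b, Snrp, Hnrnp and Prpf. A probe set, the group of short probes with which an Affymetrix array reads 1 transcript, was a member when the array annotation gave it a single symbol in 1 of these families. This yielded 171 of the 45101 probe sets, for 59 of the 18193 genes with such a probe set. The RNA came from mouse embryonic stem (ES) cells of the Dicer -/- line 27H10, kept undifferentiated and analysed 24 h after they were transfected. Dharmacon mimics of the microRNAs of the mmu-miR-290 cluster were given to 3 samples. The 3 control samples were given an siRNA directed at Renilla luciferase, which mouse cells do not make. Both groups thus lacked Dicer, the enzyme that cuts mature microRNAs from their precursors, and all 6 samples came from a single cell line. Total RNA was copied into biotinylated cRNA and hybridised to 1 array per sample. Nothing in the sample descriptions says whether replicates were separate transfections, so the p-values may rest on technical spread alone.

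The spliceosome removes introns in steps carried out by small nuclear ribonucleoproteins (snRNPs). Each is an snRNA with specific partners and a ring of Sm proteins, or of the related Lsm proteins in the case of U6. The U1 snRNP marks the 5′ splice site, the U2 snRNP with its SF3a and SF3b subcomplexes marks the branch point, and the U4/U6.U5 tri-snRNP with the Prp19 complex builds the catalytic centre. SR proteins, encoded by the Srsf genes, mostly promote the use of exons they bind, while hnRNP proteins coat nascent transcripts and often act against exon inclusion. The miR-290 cluster is the main source of microRNAs in mouse ES cells, and a microRNA recognises its targets chiefly through its seed, bases 2 to 8.

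The mature sequences below show what cells received mimics of, as far as the sample descriptions go, since they name the cluster but not the arms or the doses. They are the 3p arms of 6 microRNAs of the cluster on the plus strand of chromosome 7, from RefSeq on GRCm38.p6, with the seed in capitals. miR-292a-3p is named only.
mmu-miR-290a-3p: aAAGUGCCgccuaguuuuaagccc
mmu-miR-291a-3p: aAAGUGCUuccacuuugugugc
mmu-miR-291b-3p: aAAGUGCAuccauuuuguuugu
mmu-miR-293-3p: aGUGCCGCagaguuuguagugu
mmu-miR-294-3p: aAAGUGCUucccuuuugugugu
mmu-miR-295-3p: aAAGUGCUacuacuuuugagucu
The 7-base seed AAGUGCU is shared by 3 of these, miR-291a-3p, miR-294-3p and miR-295-3p, while the seeds of miR-290a-3p and miR-291b-3p differ from it only in the last base. The 5p arms carry other seeds, of which CUCAAAC is shared by 3 of 7.

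The 6 arrays were alike in overall signal. The median intensity was 44.2 to 44.8 on the mimic arrays and 41.7 to 44.9 on the control arrays, and log2 values correlated at 0.963 to 0.969 within groups and 0.959 to 0.964 between groups. All 9 ES cell markers were measured, with summed intensities of 115179 to 121215 in the mimic samples and 107866 to 117197 in the control samples, and 0 were called with the constant prior. The level-dependent limma test called Utf1 (adjusted p = 0.0317) and Esrrb (adjusted p = 0.0158) higher. The 10 fibroblast markers summed to 693 to 801.5 in the mimic samples and to 1044 to 1168 in the control samples. Tagln, at a mean of 260.2 in the mimic samples and 539.5 in the control samples, carried most of that gap and was called lower by limma with the constant prior (adjusted p = 0.0422). S100a4 was called lower in the level-dependent limma test only (adjusted p = 0.0245). Of the 6 fibroblast markers tested, 2 had a difference above 0, and 4 of the 10 lay below the minimum for testing. Extraembryonic endoderm markers (6 genes) summed to 416 to 483 in the mimic samples and 311 to 391 in the control samples, and 7 neural markers to 1752 to 2039.7 in the mimic samples and 1650.2 to 1728 in the control samples. Of the neural markers, limma with the constant prior called Tubb3 higher, by 0.62 (adjusted p = 0.0491), and Sox1 lower, by a difference of -0.95 (adjusted p = 0.0458). The level-dependent limma test called Tubb3 (adjusted p = 0.001) but not Sox1 (adjusted p = 0.0569). Sox1 was dim, at a mean of 36.9 in the mimic samples and 71.6 in the control samples. The part of these markers in the results below was not tested. Fewer cells of a type and less RNA per cell cannot be told apart in such samples.

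Values are linear intensities as deposited, and differences are log2 intensities in mimic minus control samples. Probe sets with a mean log2 intensity of at least 4 were tested, which kept 165 of the 171 member probe sets and all 59 genes among 29167 probe sets of the array. The 6 probe sets below the minimum belonged to Sf3a1, Sf3b5, Hnrnpc, Hnrnpl, Hnrnpr and Prpf6, each of which had a tested probe set. The first test was limma with a constant prior variance, adjusted by the Benjamini-Hochberg method over all 29167 probe sets. The second used the same values with a prior variance that follows the intensity and is robust to outlying probe sets, and is called the level-dependent test below. Where a gene had several probe sets, the brightest stood for it, and levels are compared only within a probe set.

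Transfection of the miR-290 mimics was accompanied by small differences in splicing factor mRNAs, and no member passed the first test. Of the 165 tested probe sets, 0 were called at an adjusted p under 0.05, where 1.29% of all probe sets were called (0.343% higher and 0.946% lower); by the brightest probe set of each gene it was 0 of 59, against 1.83% of all genes. The lowest adjusted p of a member in limma's test with the constant prior was 0.0725, for Hnrnpab. At an unadjusted p under 0.05, 13 members were higher and 3 lower, which is 7.88% and 1.82% of the members, against 8.49% and 11.6% of all probe sets. The level-dependent test called 12 member probe sets higher and 2 lower, which is 7.27% and 1.21% of the members, against 4.73% and 6.56% of all probe sets. These 14 probe sets belong to 10 genes. Taken by the brightest probe set of each gene, 4 of 59 genes were called higher by that test and 1 lower, against 6.2% and 9.43% of all genes. The share of members called higher was therefore near the background for genes, and that of members called lower was below it, with no test of either share.

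Most splicing factor values lay slightly above the control. The median difference was 0.07 over the 165 members and -0.01 over all tested probe sets, and 115 members (69.7%) had a difference above 0, against 49.3% of all probe sets. The 3 mimic values all lay above the 3 control values for 34 members, or 20.6%, against 13.8% of all probe sets, and all below for 10 members, or 6.06%, against 15.5%. Signal level bears on this comparison. Among probe sets with a mean log2 intensity of at least 12, which held 64 of the members, the median difference was 0.10 for the members and 0.07 for all 2171 probe sets, and 85.9% of the members and 69.5% of all were above 0. Between 10 and 12 the medians were 0.01 for 44 members and -0.004 for all, and between 8 and 10 they were 0.05 for 25 members and -0.05 for all. The median difference of the members was 0.11 after centring each array on its median, where that of all probe sets was 0.04, and 0.05 after quantile normalization, where that of all was 0.01.

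**Figure D1:**
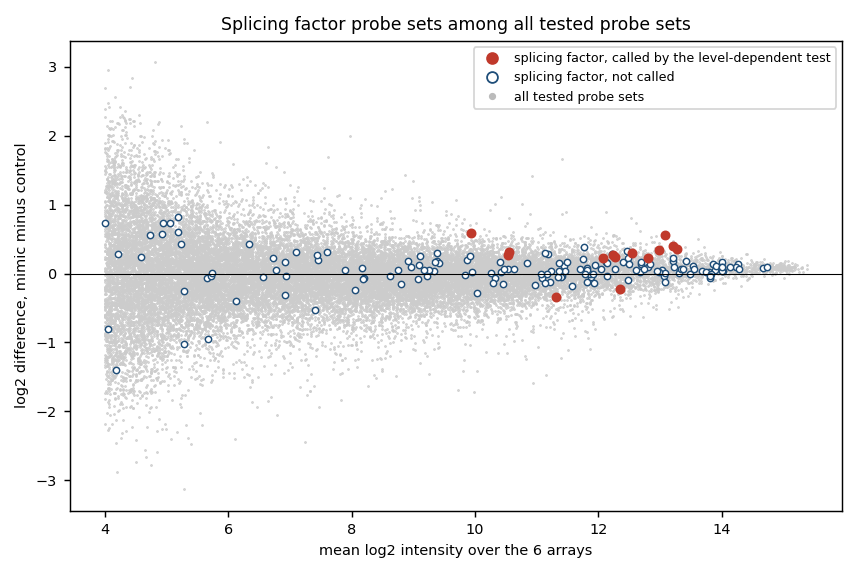
Difference between miR-290 mimic and control siRNA samples (log2 intensity, vertical) against the mean log2 intensity over the 6 arrays (horizontal), for all 29167 tested probe sets in grey and the 165 splicing factor probe sets as circles. The 14 filled circles are the members called by the level-dependent test; they lie at mean log2 intensities near 10 or above, where the scatter of all probe sets is narrow.

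Differences of 2-fold lay outside the interval of most members. The 95% interval of the difference lay within 2-fold either way for 148 of 165 members, against 66.8% of all probe sets, and within 1.5-fold for 118 members, against 41.8%. The median SD among arrays of a group was 0.07 for members with a mean log2 intensity of at least 12 and 0.65 for those between 4 and 6. The 17 members whose interval reached past 2-fold all had a mean log2 intensity under 8.

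**Figure D2:**
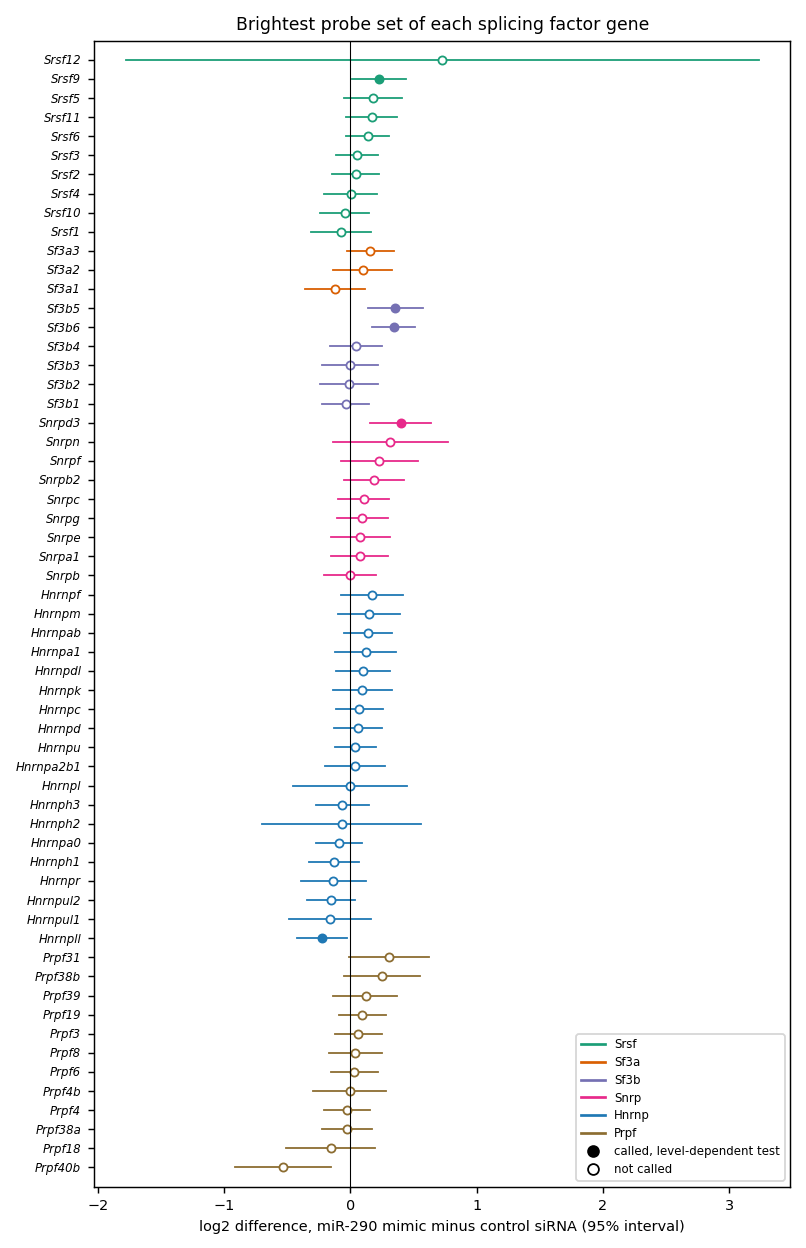
Log2 difference between miR-290 mimic and control siRNA samples (horizontal, points, with the 95% interval as a line) for the brightest probe set of each of the 59 genes, grouped by family from top to bottom. The 5 filled points, higher for Srsf9, Sf3b5, Sf3b6 and Snrpd3 and lower for Hnrnpll, passed the level-dependent test, and 0 points passed the test with the constant prior. The intervals come from the fit with the constant prior.

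The Snrp genes encode the Sm ring and proteins specific to the U1 and U2 snRNPs. Of their 18 probe sets for 9 genes, 14 had a difference above 0, against 49.3% of all probe sets, and the median was 0.10. The level-dependent test called 1 of the 18 higher and 0 lower, against 4.73% and 6.56% of all probe sets. That probe set belongs to Snrpd3, which encodes SmD3, a core protein of the Sm ring. Its brightest probe set, 1422884_at, read 10816, 11444 and 10452 in the mimic samples, against 8239, 9042 and 7573 in the control samples. The lowest mimic value lay above the highest control value. The mean was 10904 ± 502 in the mimic samples and 8285 ± 736 in the control samples (SD, n = 3 each), a difference of 0.40 on the log2 scale (95% interval 0.16 to 0.64) that was called by the level-dependent test (adjusted p = 0.0023) and not with limma's constant prior (adjusted p = 0.109). The other ring proteins measured by a single-symbol probe set showed smaller differences, none of them called. Snrpg (SmG) read 29638, 27409 and 27309 in the mimic samples, against 24883, 27610.1 and 26449.6 in the control samples, and the groups overlapped. Snrpe (SmE) read 28172, 24391 and 27829 in the mimic samples, against 24080.4, 25551 and 26393 in the control samples, with overlap too. The difference was 0.10 (95% interval -0.11 to 0.30) for Snrpg and 0.08 (-0.15 to 0.31) for Snrpe. In a dimmer Snrpg probe set, 1448357_at, all mimic values lay above all control values. It differed by 0.14 (-0.06 to 0.34) and was not called (adjusted p = 0.096 in the level-dependent limma test). Snrpf (SmF), named after its values were seen, differed by 0.23 on the log2 scale (95% interval -0.07 to 0.53), with 1 control value, 9852, above the lowest mimic value, 9651. Snrpb (SmB) differed by -0.01 on the log2 scale (95% interval -0.21 to 0.20) on its brightest probe set, with overlap.

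Among the snRNP-specific proteins, Snrpc, the U1-C protein that helps U1 bind the 5′ splice site, read 12120.4, 13092 and 11610.4 in the mimic samples, against 11775, 11438 and 11009 in the control samples on its brightest probe set, a difference of 0.10 on the log2 scale (95% interval -0.10 to 0.31). Its second probe set was dim, with intensities between 2.54 and 37.6, and differed by -1.41 with an interval of -3.95 to 1.14. Snrpa1 (U2-A′) and Snrpb2 (U2-B″), the pair that joins the U2 snRNA, differed by 0.07 (-0.16 to 0.30) and 0.18 (-0.05 to 0.42). None of the 3 was called by either test. Snrpn, whose SmN protein replaces SmB chiefly in neurons, was measured by a single-symbol probe set only at low signal, 221 ± 47.2 in the mimic samples and 176 ± 18.2 in the control samples (SD, n = 3 each), and its difference of 0.32 on the log2 scale (95% interval -0.14 to 0.77) was not called. Snrpa, Snrpd1 and Snrpd2 appeared in the annotation with other symbols on the same probe set, so they were not members.

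SF3a, the 3-protein subcomplex that joins U2 to the branch region, gave 0 calls in either test among its 7 tested probe sets. Sf3a3 read 4568, 4916 and 4849 in the mimic samples, against 4287, 4134 and 4411 in the control samples on its brightest probe set, without overlap between groups, a difference of 0.16 on the log2 scale (95% interval -0.03 to 0.34) with an adjusted p of 0.0799 in the level-dependent limma test. Its second probe set differed by 0.39 (95% interval -0.001 to 0.77), also without overlap and also not called (adjusted p = 0.0546 in the level-dependent limma test). Sf3a2 read 7647, 7111 and 7430.1 in the mimic samples, against 6332, 7524 and 6915 in the control samples, and its groups overlapped. Sf3a1 differed by -0.12 (-0.36 to 0.11).

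In SF3b, the subcomplex that holds the branch point, 4 of 21 tested probe sets were called higher by the level-dependent test and 0 lower. That test called 4.73% of all probe sets higher and 6.56% lower. All 4 SF3b calls belong to the 2 small subunits Sf3b5 and Sf3b6, of 6 genes measured. Sf3b6 encodes the p14 subunit, which contacts the branch point adenosine. Its brightest probe set, 1417055_at, read 9138, 8879.6 and 9312 in the mimic samples, against 6985, 7257 and 7317 in the control samples. A second, 1417054_a_at, read 7872, 7631 and 7746 in the mimic samples, against 6607, 6656 and 6643 in the control samples. In both, every mimic value lay above every control value, by a margin wider than the spread within either group. The first averaged 9109.8 ± 218 in the mimic samples and 7186 ± 177 in the control samples (SD, n = 3 each), a difference of 0.34 on the log2 scale (95% interval 0.17 to 0.51), with an adjusted p of 0.000794 in the level-dependent limma test and 0.0786 with the constant prior. The second differed by 0.22 on the log2 scale (95% interval 0.06 to 0.39) (adjusted p = 0.00741 and 0.146 in the same limma tests). The other 2 Sf3b6 probe sets, both of the kind that Affymetrix marks as able to bind other transcripts, differed by 0.33 and 0.44 and were not called.

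Sf3b5 encodes the smallest SF3b subunit, known as SF3b10. Its brightest probe set, 1437972_s_at, read 10649.6, 12012 and 10968 in the mimic samples, against 9061, 8914 and 8272 in the control samples. The groups did not overlap, and the difference was 0.36 on the log2 scale (95% interval 0.14 to 0.57), called by the level-dependent limma test (adjusted p = 0.00219) and not with the constant prior (adjusted p = 0.108). The second Sf3b5 probe set, 1451185_at, read 5321, 5828 and 5003 in the mimic samples, against 4594, 4655 and 4406 in the control samples, again without overlap. Its call (difference 0.24, level-dependent limma adjusted p = 0.0265) was kept in 2 of the 6 fits that left out 1 array, and its adjusted p was at most 0.101 in them.

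The other SF3b subunits with Sf3b names gave no call. Sf3b1, the HEAT-repeat protein that clamps the branch helix, read 8911, 8373 and 8114 in the mimic samples, against 8633, 8871 and 8543 in the control samples on its brightest probe set, with full overlap and a difference of -0.04 on the log2 scale (95% interval -0.22 to 0.15). A dimmer Sf3b1 probe set, 1418561_at, had every mimic value below every control value but a wide interval, -0.62 to 0.07. Sf3b3 differed by -0.001 (-0.22 to 0.22), Sf3b4 by 0.05 (-0.16 to 0.25) and Sf3b2 by -0.01 (-0.24 to 0.22). In 2 dimmer Sf3b2 probe sets, 1456352_a_at and 1456040_at, every mimic value lay above every control value, with differences of 0.16 and 0.19 that were not called (level-dependent limma adjusted p = 0.194 and 0.18). Whether Sf3b5 and Sf3b6 differ from these subunits was not tested.

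The Prpf genes encode proteins of the tri-snRNP and of the complexes around it. In the level-dependent test 2 of their 31 tested probe sets were called higher and 0 lower, against 4.73% and 6.56% of all probe sets. Prpf19 encodes the ubiquitin ligase at the centre of the Prp19 complex. The called probe set, 1460633_at, read 1095, 1279 and 1259 in the mimic samples, against 810.4, 877 and 723 in the control samples, all mimic values above all control values. It differed by 0.59 on the log2 scale (95% interval 0.31 to 0.88), or 1.51-fold, with a level-dependent limma adjusted p of 0.00212 and a constant-prior one of 0.0752. The 3 brighter Prpf19 probe sets did not follow it. The brightest, 1456531_x_at, read 17906, 16092 and 17092 in the mimic samples, against 15857, 15876 and 16066 in the control samples, with the groups apart by a narrow margin. It differed by 0.10 on the log2 scale (95% interval -0.09 to 0.28), and the next 2 by 0.002 (-0.19 to 0.20) and 0.02 (-0.17 to 0.20). The dimmest, 1444939_at, at a mean log2 intensity of 5.05, differed by 0.74 (-0.17 to 1.66) and was called by neither test. The Prpf19 call therefore rests on 1 of 5 probe sets, and which transcript that probe set reads was not analysed here.

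Prpf8, the U5 protein that forms the scaffold of the catalytic centre, read 8083, 8661 and 7519 in the mimic samples, against 7669, 8013 and 7894 in the control samples, with overlap and a difference of 0.04 on the log2 scale (95% interval -0.17 to 0.25). Prpf6, the U5 protein that bridges to U4/U6, was named after its values were seen. Its brightest probe set differed by 0.03 (-0.16 to 0.22), while its second, 1454789_x_at, differed by 0.32 and was called in the level-dependent limma test (adjusted p = 0.0324) and in 2 of the 6 fits without 1 array, with an adjusted p of at most 0.124. The U4/U6 proteins Prpf3, Prpf4 and Prpf31 differed by 0.06, -0.03 and 0.30, and none was called. For Prpf31 every mimic value lay above every control value on that probe set (level-dependent limma adjusted p = 0.053). The second Prpf31 probe set differed by -0.07. Prpf38b and Prpf4b had probe sets far apart. For Prpf38b, which resembles the tri-snRNP activator Prpf38a, the brightest probe set differed by 0.25 on the log2 scale (95% interval -0.05 to 0.55) and the dimmest tested one by -0.80 (-2.17 to 0.57). For Prpf4b, a kinase that acts on tri-snRNP proteins, the values were -0.01 on the log2 scale (95% interval -0.29 to 0.28) and 0.82 (-0.33 to 1.96). The most negative gene of the family, Prpf40b, a relative of a yeast U1 protein, read 152, 161 and 115 in the mimic samples, against 216, 203 and 194 in the control samples on its only probe set, without overlap. Its difference of -0.54 on the log2 scale (95% interval -0.91 to -0.16) did not pass the level-dependent limma test (adjusted p = 0.0684) and it was named after its values were seen.

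For the Srsf genes the differences were small. Of 33 tested probe sets for 10 genes, 24 had a difference above 0, against 49.3% of all probe sets, and the median was 0.04. The level-dependent test called 1 of the 33 higher and 0 lower, against 4.73% and 6.56% of all probe sets. The 26 brighter ones, with a mean log2 intensity of at least 10, ranged from -0.19 to 0.22. The call was Srsf9 (SRp30c), whose only probe set read 4849, 4852 and 4242 in the mimic samples, against 3918, 3984 and 4009.5 in the control samples. The groups did not overlap, the difference was 0.22 on the log2 scale (95% interval 0.01 to 0.44), and the level-dependent limma adjusted p was 0.0351, but the call was kept in 1 of the 6 fits that left out 1 array, with an adjusted p of at most 0.144. Srsf3 (SRp20), a small SR protein also active in mRNA export, read 15484, 15704 and 15648 in the mimic samples, against 15007, 14617 and 15510.1 in the control samples. Its difference was 0.05 on the log2 scale (95% interval -0.12 to 0.22), and the lowest mimic value lay within the range of the control values. Srsf1 (SF2/ASF), the founding SR protein, read 14154, 12767 and 15075 in the mimic samples, against 14418, 14126 and 15509 in the control samples on its brightest probe set. Here too the groups overlapped, with a difference of -0.07 on the log2 scale (95% interval -0.31 to 0.17). Its 5 other bright probe sets lay between -0.12 and 0.03, and a dim one differed by -1.02 (-2.89 to 0.84). Srsf12, the least certain gene of all, was measured only at intensities near the minimum, and its interval ran from -1.78 to 3.24.

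The Hnrnp family was the largest, with 55 tested probe sets for 19 genes. It was the only one with calls in both directions in the level-dependent test, 4 higher and 2 lower. Over all probe sets, 4.73% were called higher and 6.56% lower. Both lower calls were of Hnrnpll, a paralogue of Hnrnpl known for its part in CD45 splicing in T cells. Its probe set 1427144_at read 2337, 2110.1 and 2328 in the mimic samples, against 2926, 2647 and 3039 in the control samples. The brighter one, 1425255_s_at, read 4831, 4690.1 and 4982 in the mimic samples, against 5300.2, 5873 and 5772 in the control samples. In both, every mimic value lay below every control value. The first differed by -0.35 on the log2 scale (95% interval -0.58 to -0.11) (adjusted p = 0.00799 in the level-dependent limma test, 0.129 with the constant prior) and was called in all 6 fits that left out 1 array. The brighter one differed by -0.22 on the log2 scale (95% interval -0.42 to -0.03) (level-dependent limma adjusted p = 0.0226) and was called in 2 of those 6, with an adjusted p of at most 0.0877. Hnrnpl itself read 2268, 2826 and 1892 in the mimic samples, against 2404, 2515 and 2023 in the control samples, a difference of -0.004 on the log2 scale (95% interval -0.46 to 0.45).

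Hnrnpab, which encodes an RNA-binding protein of the A/B group, had the lowest adjusted p of the members with the constant prior. Probe set 1426114_at read 10584, 9673 and 11545 in the mimic samples, against 6991, 7782 and 6828 in the control samples. Every mimic value exceeded every control value, the mean was 10601 ± 936 in the mimic samples and 7200.3 ± 510.4 in the control samples (SD, n = 3 each), and the difference was 0.56 on the log2 scale (95% interval 0.30 to 0.82), with a level-dependent limma adjusted p of 0.000508 and a constant-prior one of 0.0725. The 3 brighter Hnrnpab probe sets differed by 0.14, 0.10 and 0.12, and none of these was called. The brightest of them, 1455855_x_at, read 20707, 20179 and 21177 in the mimic samples, against 17831, 18816 and 19670.4 in the control samples, so its groups did not overlap either, with a much smaller difference and an adjusted p of 0.0701 in the level-dependent limma test. The probe sets dimmer than the called one, 1448144_at, 1431349_at and 1459880_at, differed by 0.03, 0.25 and -0.05 without a call. The Hnrnpab call therefore rests on 1 of 7 probe sets.

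Hnrnpf, which binds G-rich RNA, was named after its values were seen. Its 4 probe sets differed by 0.17, 0.30, 0.27 and 0.28, from the brightest to the dimmest. The second, 1423382_a_at, read 6457, 6815 and 6527 in the mimic samples, against 5146, 5806 and 5202 in the control samples, without overlap. It was called in the level-dependent limma test (adjusted p = 0.00654) and in all 6 fits that left out 1 array, while the third (level-dependent limma adjusted p = 0.0477) was called in 1 of them, with an adjusted p of at most 0.174. The other higher call was 1 of 4 Hnrnpa2b1 probe sets, 1433830_at, also named after its values were seen, with a difference of 0.27 (level-dependent limma adjusted p = 0.0247). It was called in 2 of the 6 fits, with an adjusted p of at most 0.0914. The 3 brighter Hnrnpa2b1 probe sets differed by 0.04, 0.03 and 0.07.

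The genes of hnRNP C, K and U differed by 0.04 to 0.09 on their brightest probe sets, with no call. Hnrnpc, which coats nascent transcripts at U-rich stretches, read 21162, 20912 and 19695 in the mimic samples, against 19223, 20399 and 19205 in the control samples, with overlap and a difference of 0.07 on the log2 scale (95% interval -0.12 to 0.26). Hnrnpk differed by 0.09 (-0.14 to 0.33) and Hnrnpu, a nuclear scaffold protein, by 0.04 (-0.12 to 0.20). For Hnrnpul2 the 2 probe sets differed by -0.16 and -0.13, each with all mimic values below all control values, and for Hnrnph1 the brightest probe set differed by -0.13, likewise without overlap. None of these was called, and the genes of this paragraph other than Hnrnpc were named after their values were seen.

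**Figure D3:**
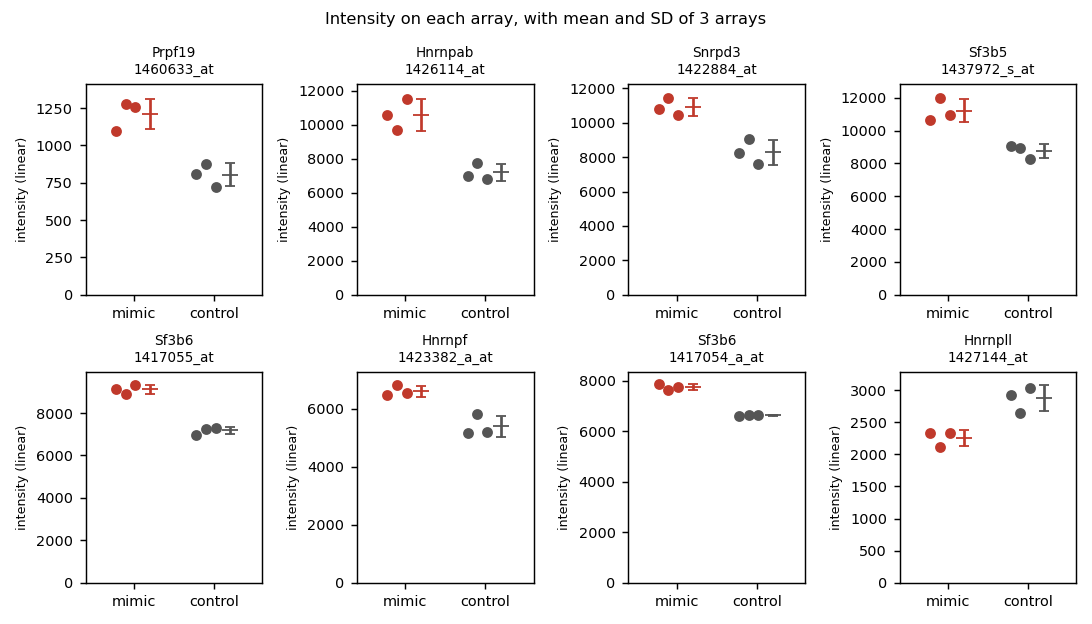
Linear intensity on each array (points, mimic replicates on the left and control replicates on the right of each panel, with the mean and SD of 3) for the 8 probe sets called by the level-dependent test in the full data and in all 6 fits that left out 1 array. In each panel the groups do not overlap: 7 probe sets are higher in the mimic samples, and Hnrnpll is lower.

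Leaving out 1 array at a time in the level-dependent test kept 7 higher and 1 lower call in all 6 fits, for 7 genes. These were 1 probe set each of Hnrnpab, Prpf19, Snrpd3, Sf3b5 and Hnrnpf, 2 of the 3 Sf3b6 probe sets with a mean log2 intensity of at least 12, and Hnrnpll. Across the 6 fits, the difference of Hnrnpab ranged from 0.49 to 0.62, that of Prpf19 from 0.52 to 0.66 and that of Hnrnpll from -0.40 to -0.30. The count of higher calls fell to 7 of 165 without control replicate 3, against 12 with all arrays. The share of all probe sets called higher also fell, from 4.73% to 2.69%. The count of lower calls was 1 without control replicates 2 or 3 or mimic replicates 1 or 2. In those fits 4.07% to 5.49% of all probe sets were called lower, against 6.56% with all arrays. Centring each array on its median gave 22 higher and 1 lower call of 165 in the level-dependent test, against 6.04% and 4.88% of all probe sets. With the constant prior and a minimum mean log2 intensity of 6, limma called 5 members higher and 1 lower of 147, against 4.36% and 7.8% of all 19503 probe sets so tested.

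**Figure D4:**
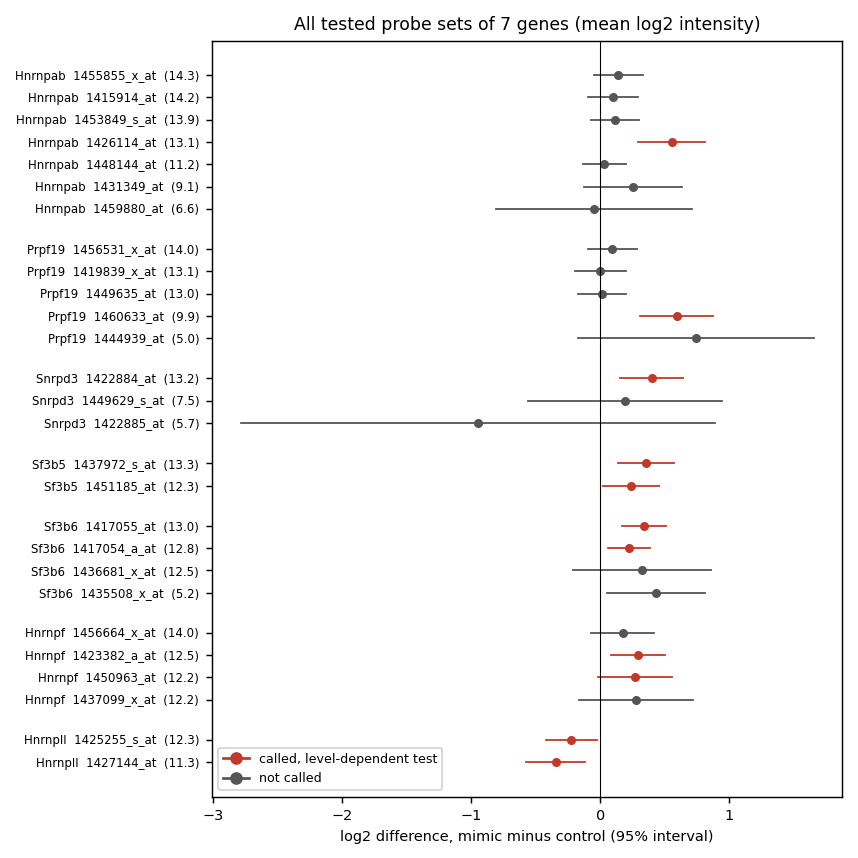
Log2 difference between mimic and control samples (horizontal, points with 95% intervals) for every tested probe set of the 7 genes with a call in all 6 fits, listed under its gene from the brightest to the dimmest, with the mean log2 intensity in brackets. Red points were called by the level-dependent test, while the intervals come from the fit with the constant prior. The interval of the called Hnrnpf probe set 1450963_at, -0.02 to 0.55, therefore includes 0. In Hnrnpab and Prpf19 the probe sets brighter than the called one sit near 0, at 0.002 to 0.14.

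Probe sets of the same gene mostly gave like values where the signal was high. For the 28 genes with more than 1 probe set at a mean log2 intensity of at least 10, the differences of those probe sets lay a median of 0.12 apart, and at most 0.52. Counting all tested probe sets, 5 of 42 genes (Snrpc, Snrpd3, Prpf38b, Srsf1 and Prpf4b) had differences more than 0.8 apart, each through a dim probe set. For Snrpd3 the dim probe set 1422885_at read 12.2, 57.6 and 70.2 in the mimic samples, against 50.5, 87.8 and 79.9 in the control samples, and differed by -0.95 (-2.79 to 0.89), opposite to the called one, so that the mean over its 3 probe sets was -0.12. The 16 member probe sets of the cross-binding kind (suffix _x_at, mean log2 intensity of at least 8) moved together by array: their median deviation from the group mean was -0.11 on mimic array 2 and 0.12 on mimic array 3, and -0.07 on control array 2 and 0.08 on control array 3. For all 1025 such probe sets these medians were between -0.02 and 0.01. Close paralogues and pseudogenes of Hnrnpa1, Hnrnpa3 and the Sm genes may share probes, and 16 further probe sets with several symbols were left out.

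Other genes of the splicing machinery were taken as 10 lists, with 128 of 146 genes tested. With the constant prior limma called 0 higher and 1 lower through the brightest probe set, against 0.456% and 1.38% of all genes. The called gene was Mbnl2. The level-dependent test called 23 higher and 7 lower, which is to be read against 6.2% and 9.43% of all genes. The median difference over the 128 genes was 0.09, and 93 were above 0. Over all tested probe sets the median was -0.01 and 49.3% were above 0. Signal level bears on this comparison too, since 69.5% of all probe sets with a mean log2 intensity of at least 12 were above 0.

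Higher calls were made in each list of snRNP, early complex and assembly proteins, and are to be read against 6.2% of all genes. Of 7 genes with Snrnp names, 3 were called higher and 0 lower, among them Snrnp27, a tri-snRNP protein, at 0.19. Snrnp25, a protein of the minor U11/U12 snRNP named after its values were seen, read 4574, 4965 and 4487 in the mimic samples, against 3511, 3302 and 3176 in the control samples, a difference of 0.49 on the log2 scale (95% interval 0.28 to 0.70) with an adjusted p of 0.000458 in the level-dependent limma test and 0.0648 with the constant prior. Of 13 early factors 4 were called higher, including U2af1, which reads the 3′ splice site, at 0.29, and Phf5a, the SF3b subunit outside the Sf3b names, at 0.33. Phf5a read 7940.3, 7422 and 7335 in the mimic samples, against 5884, 6376 and 5831 in the control samples, without overlap, and was named after its values were seen. Of 9 Lsm proteins, most of which form the ring of U6 snRNA, 3 were called higher, with Lsm4 at 0.31 and Lsm3, not called, at 0.04. Of 11 genes of the SMN complex and snRNP assembly 3 were called higher, with Wdr77, a methylosome subunit, at 0.22 and Clns1a, not called, at 0.06. Of 19 genes of the tri-snRNP and Prp19 complex 2 were called higher, while Cdc5l and Smu1 differed by 0.02 and 0.07 without a call.

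Lists of regulators were mixed, to be read against 6.2% of all genes called higher and 9.43% called lower. Among 8 SR protein kinases 1 was called higher, Clk1 at 0.20, and 1 lower, Dyrk1a at -0.51, the second named after its values were seen, while Srpk1 differed by 0.11 without a call. Among 19 SR-related proteins 2 were called higher and 1 lower, and Srrm2 and Tra2b differed by 0.07 and 0.09 without a call. The exon junction complex had 1 of 2 called higher, Rbm8a at 0.17, with Casc3 at -0.04 not called. The 6 genes of the minor spliceosome list gave 0 calls in either test, with Scnm1 at 0.15 and Zcrb1 at -0.06. That list left out Snrnp25 of the U11/U12 snRNP, called higher at 0.49 and counted with the Snrnp names. Snrnp35 and Snrnp48, proteins of the same snRNP and also counted there, differed by 0.04 and -0.02 without a call. Sf1, the branch point protein, and Snrnp200, the U5 helicase, differed by 0.04 and 0.03 without a call.

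The 34 other RNA-binding regulators held 5 of the 7 lower calls in the level-dependent test, beside 4 higher ones. Mbnl2, a muscleblind protein that represses ES-cell-type exons together with Mbnl1, read 1942, 1822 and 1975 in the mimic samples, against 2824, 2720.2 and 2791 in the control samples. The 3 mimic values lay far below the 3 control values, and the difference was -0.54 on the log2 scale (95% interval -0.72 to -0.36), with an adjusted p of 0.0457 in limma's test with the constant prior. That call was lost after median centring (limma adjusted p = 0.0612), with no minimum level (0.174) and in each of the 6 fits without 1 array (0.135 to 0.153), with differences of -0.56 to -0.50 in those 6. The mean over the probe sets of Mbnl2 differed by -0.22. Mbnl1 and Ptbp2, the neuronal relative of the polypyrimidine tract protein, were named after their values were seen. Mbnl1 read 737, 695 and 655 in the mimic samples, against 1130.4, 1005 and 1025 in the control samples, and Ptbp2 read 2001, 1674 and 2139 in the mimic samples, against 3159.5, 3093 and 3330.1 in the control samples. Neither overlapped, the differences were -0.60 on the log2 scale (95% interval -0.82 to -0.37) and -0.73 on the log2 scale (95% interval -1.02 to -0.44), and both were called by the level-dependent limma test (adjusted p = 0.001 and 0.000303) but not with the constant prior (adjusted p = 0.0548 and 0.0601). Pcbp1 and Nono, the brightest of this list, differed by 0.07 and 0.01 without a call. A dimmer probe set of Sfpq, the partner of Nono, read 1116, 1148 and 1160.4 in the mimic samples, against 754, 682 and 622 in the control samples and was called higher by both tests (constant-prior limma adjusted p = 0.045), whereas its brightest probe set differed by 0.12 (95% interval -0.14 to 0.37) and was not called; Sfpq was named after its values were seen.

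**Figure D5:**
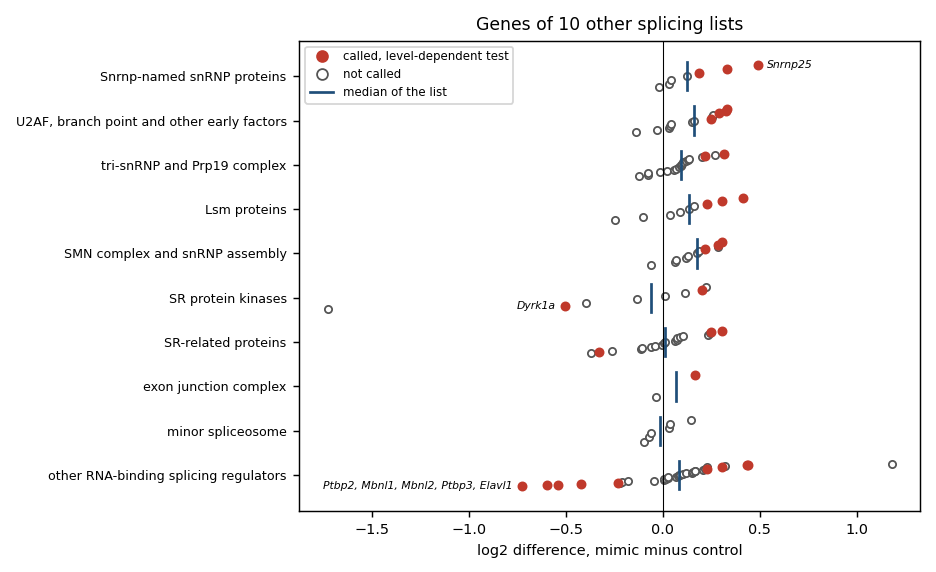
Log2 difference between mimic and control samples (horizontal) for the brightest probe set of each of 128 genes in 10 further splicing lists (rows), with the median of each list as a bar. Red points were called by the level-dependent test; the list of other RNA-binding regulators holds 5 of the 7 lower ones, labelled from left to right.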

How the data were processed

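Total RNA of 6 samples was measured on Affymetrix arrays, 3 with miR-290 mimics and 3 with control siRNA, grouped by the sample titles. The authors deposited 1 linear intensity per probe set and array. Per the submitters' processing notes GCRMA was used, without a version; its output is usually on a log2 scale, whereas each deposited array has a trimmed mean of 500, so which tool set the final scale is not settled. Background correction and detection calls were not analysed here, and the number of arrays limits the precision. The planned design assumed log2 intensities, so log2 was taken of the deposited intensities with no offset.

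The 64 control probe sets were left out, and a mean log2 intensity of at least 4 (16 linear) was required. The test was limma's lmFit and eBayes (version 3.58.1, R 4.3.3; constant prior, 2-sided, all 6 arrays, no covariates, Benjamini-Hochberg over all tested probe sets, threshold 0.05). The level-dependent test used eBayes with trend and robust options. Intervals are limma's. Genes were named from the platform annotation, and all 59 identifiers matched GRCm38.p6 with the same symbols. Tables used pandas 2.3.3 and figures matplotlib 3.10.9. The fits were first tested on simulated data.

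Members, lists, tests and most alternatives were chosen with earlier results of these data known. The rule for names took, in each family, every gene past the threshold, up to 4 genes per direction with the largest difference among those past the level-dependent threshold on the brightest probe set, the 2 genes with the highest mean, and genes whose probe sets lie over 0.8 apart. From each other list it took up to 3 genes past the threshold, or, where fewer than 2 passed, the 2 with the highest mean. The other genes in the text were chosen after their values were seen. Alternatives were median centring, quantile normalization, other filters, an offset of 16, a replicate block, leaving out each array and the mean of probe sets. Promoter sequences were not used here.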

Additional observations from a re-analysis of the deposited data

How the results depend on the processing

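With the constant prior, the count of member probe sets called was 0 in both directions under median centring, quantile normalization, no filter, an offset of 16, the replicate block and in every fit without 1 array. It was 12 higher and 2 lower with the level-dependent prior, 5 and 1 with a filter at a mean log2 of 6, and 9 and 2 of 133 with a filter at 8, against 9.32% and 14.0% of all 12869 probe sets so tested, the last chosen after seeing the data. By genes the level-dependent prior gave 4 higher and 1 lower (all genes: 6.2% and 9.43%), and the filter at 6 gave 3 higher. That filter called 4.36% of all probe sets higher and 7.8% lower. For the level-dependent test, further settings were chosen after seeing the data: fits without 1 array gave 7 to 13 higher and 1 to 2 lower of 165 (all probe sets: 2.5% to 4.27% and 4.07% to 5.49%), median centring gave 22 and 1 (6.04% and 4.88%), and the replicate block gave 18 and 3 (5.24% and 6.96%). Samples with the same replicate number correlated at -0.116, 0.21 and 0.227 (deviations from group means over 12869 probe sets). Mimic and control samples with different numbers correlated at -0.306 to 0.121. Whether samples of the same number shared a batch was not tested. In the other lists, where 0 were higher and 1 lower, the level-dependent prior gave 23 higher and 7 lower (all genes: 6.2% and 9.43%). The filter at 6 gave 10 and 5. The offset gave 3 lower. Median centring, no filter, the replicate block and each fit without 1 array gave 0 lower, the call of Mbnl2 being lost. Shares of all genes under the filter at 6 and the offset are not given here, so those gene counts stand without a background. The median member difference was 0.113 with median centring and 0.046 with quantile normalization.

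Some differences not called with the constant prior changed sign; 1 of them, Snrpd3 (1422884_at), was called higher by the level-dependent limma test (adjusted p = 0.0023). Quantile normalization gave -0.024 for Srsf3, -0.009 for Snrpe, -4.56e-05 for Prpf8, 0.009 for Prpf4b, -0.004 for Snrnp200, -0.032 for Sf1, -0.017 for Cdc5l, -0.024 for Lsm3, -0.01 for Clns1a, -0.062 for Nono and -0.034 for Srsf1 (1434972_x_at). The mean of probe sets gave -0.064 for Srsf3, -0.119 for Snrpd3, -0.65 for Snrpc, -0.003 for Prpf38b, 0.165 for Prpf4b, -0.071 for Sf1, -0.034 for Smu1, -0.299 for Tra2b and -0.014 for Nono. Median centring gave 0.009 for Sf3b1, 0.042 for Prpf4b and 0.012 for Casc3. Fits without 1 array ranged from -0.011 to 0.091 for Prpf8, -0.081 to 0.082 for Prpf4b (1425498_at), -0.231 to 0.057 for Prpf4b (1451909_a_at), -0.008 to 0.052 for Cdc5l, -0.113 to 0.017 for Zcrb1, -0.063 to 0.103 for Nono and -0.037 to 0.124 for Srsf1 (1434972_x_at). The cause of each was not tested. The 17 members whose 95% interval reached past 2-fold all had a mean log2 intensity under 8.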
